A study of Mus musculus with 10 samples.

Results

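The MAP kinase cascade is covered on a mouse immune panel by 9 genes that were grouped here by name: the ERK-activating kinases *Map2k1* and *Map2k2*, the MAP kinases *Mapk3*, *Mapk8*, *Mapk11* and *Mapk14*, the p38 substrate kinase *Mapkapk2*, and the dual-specificity phosphatases *Dusp4* and *Dusp6*. They are 9 of the 770 genes of the NanoString PanCancer Immune panel, which counts transcripts by hybridization to barcoded probes. The 10 samples were bulk YUMMER1.7 tumors, 5 grown in WT mice (replicates 2 to 6) and 5 in Siah2-/- mice, all male C57BL/6 animals, the latter called Siah2 KO (replicates 1, 2, 3, 5 and 6), collected at day 11 after injection by the sample labels. YUMMER1.7 is a mouse melanoma line that carries Braf V600E and lacks Cdkn2a, so tumors of both groups share these alleles. The deletion is in the host, the injected cells carry Siah2, and the tumors therefore hold Siah2-competent melanoma cells together with host cells of either genotype. The panel has no *Siah2* probe, so the genotype labels were not checked. The design text of the series gives Yumm1.5 cells, Rnf5-/- mice and collection at day 10, which goes against the sample labels, and the groups used here are those of the sample labels.

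In the cascade, an activated receptor and RAF switch on the MAP2K kinases, which phosphorylate the ERK kinases, while parallel arms activate JNK and p38. These switches act mostly on the proteins, and the transcript levels measured here do not report kinase activity. Dual-specificity phosphatases remove the activating phosphates. *Dusp4* and *Dusp6* are transcribed in response to ERK signaling and serve in melanoma with mutant BRAF as readouts of it.

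Of the 9 genes, *Map2k1* was higher in tumors of Siah2 KO mice and the other 8 did not pass the test. *Map2k1* encodes MEK1, and its level was 1.29 times that of WT tumors. Its paralog *Map2k2*, which encodes MEK2, had a ratio of 1.01. The count of genes called higher was 1 of 9, and of genes called lower 0 of 9, at an adjusted p under 0.05 (limma, 770 probes). Over the whole panel 31.3% of probes were called higher and 9.74% lower. With 9 genes, counts of 1 and 0 are too small to be set apart from these shares, and both counts changed with the scaling. The median log2 fold change of the 9 genes was 0.04, beside 0.24 for all probes.

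The result for the 9 genes depended on the scaling. The deposited values are scaled to 20 reference genes. When each tumor was scaled to its panel median instead, the median log2 fold change of all probes moved from 0.24 to -0.01, and calls over the panel moved from 241 higher and 75 lower to 163 higher and 152 lower. Under that scaling *Map2k1* was not called (log2 fold change 0.10, adjusted p = 0.40) and 3 genes were called lower. These were *Mapk3* (-0.44, adjusted p = 0.0070), *Dusp4* (-0.36, adjusted p = 0.046) and *Map2k2* (-0.26, adjusted p = 0.039). *Map2k1* was also not called with quantile normalization (-0.038, adjusted p = 0.72) or with scaling to the positive controls (0.21, adjusted p = 0.82). Which of the scalings is closer to the RNA content per cell was not tested. Ratios of 2 genes within a tumor do not depend on a factor that multiplies all genes of that tumor, such as that of the reference genes, the panel median or the positive controls, although quantile normalization can change them. They are given after the single genes.

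The upstream sequences of *Map2k1* and *Map2k2* are shown because the ratio of these paralogs differed between the groups. RefSeq promoter sequences (GRCm38.p6) were matched for 7 of the 9 genes. The first 250 bases of each promoter entry, which end at the entry's start site, are given 5′ to 3′ on the gene's own strand, with matches to GGGCGG or CCAAT on either strand in capitals. The *Map2k1* stretch lies at chr9:64253606-64253855 on the minus strand and the *Map2k2* stretch at chr10:81105665-81105914 on the plus strand, where its end passes the annotated gene start at 81105913.
Map2k1: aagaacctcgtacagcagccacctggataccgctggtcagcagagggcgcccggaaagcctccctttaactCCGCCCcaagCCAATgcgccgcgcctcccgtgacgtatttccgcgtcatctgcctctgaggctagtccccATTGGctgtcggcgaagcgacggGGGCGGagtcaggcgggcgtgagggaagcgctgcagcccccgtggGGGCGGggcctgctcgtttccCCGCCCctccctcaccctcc
Map2k2: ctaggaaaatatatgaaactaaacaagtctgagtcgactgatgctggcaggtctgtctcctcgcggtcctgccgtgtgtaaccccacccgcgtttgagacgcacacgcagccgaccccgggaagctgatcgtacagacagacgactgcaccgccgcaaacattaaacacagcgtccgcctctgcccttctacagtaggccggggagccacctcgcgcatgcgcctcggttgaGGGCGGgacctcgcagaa
The *Map2k1* stretch held 4 matches to GGGCGG, the GC box, and 2 to CCAAT, and the *Map2k2* stretch held 1 and 0. Over 32536 promoters of the same length, 33.0% held at least 1 GGGCGG and 33.8% at least 1 CCAAT. The GC content was 68.4% and 59.6%, beside a median of 52.4%. These are matches of letters, and no binding was measured.

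*Map2k1* was measured at 1044, 1068, 1166, 1003 and 1010 normalized counts in Siah2 KO replicates 1, 2, 3, 5 and 6, and at 796, 788, 772, 913 and 822 in WT replicates 2 to 6. Every Siah2 KO tumor lay above every WT tumor. The means were 1058 ± 65.6 and 818 ± 56.1 (SD, n = 5 each), with a log2 fold change of 0.37 (SE 0.08, 95% interval 0.19 to 0.55, limma adjusted p = 0.0050). The two-sided exact permutation test gave p = 0.0079, the smallest value that 5 tumors against 5 allow. Groups without overlap were found for 31.6% of all probes, and among the 9 genes for *Map2k1* alone. *Map2k1* ranked 301 of 770 by fold change, and its value was 0.13 above the panel median on the log2 scale.

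*Map2k2* was measured at 827, 808, 825, 840 and 851 normalized counts across the Siah2 KO tumors, and at 779, 832, 784, 880 and 858 in the WT tumors. The groups overlapped, and the Siah2 KO values all lay within the WT range. The log2 fold change was 0.01 (95% interval -0.15 to 0.17, adjusted p = 0.94).

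*Mapk3*, which encodes ERK1, had a mean of 870 ± 89.3 normalized counts in Siah2 KO and 977 ± 57.9 in WT tumors (SD, n = 5 each). Its values were 820, 976, 945, 852 and 759 in the Siah2 KO tumors and 970, 1077, 962, 932 and 945 in the WT tumors. Siah2 KO replicates 1, 5 and 6 were below every WT tumor. The log2 fold change of -0.17 (95% interval -0.38 to 0.04) did not pass the test (limma adjusted p = 0.17).

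The kinases of the JNK and p38 arms among the 9 genes did not pass the test. *Mapk8*, which encodes JNK1, was at 149 ± 9.31 normalized counts in Siah2 KO and 145 ± 12.0 in WT tumors, and the log2 fold change was 0.04 (95% interval -0.16 to 0.24, adjusted p = 0.73, limma). *Mapk11*, which encodes p38 beta, had the widest interval of the 9 genes. It was at 75.9 ± 16.1 and 70.0 ± 9.97 normalized counts, a log2 fold change of 0.10 (95% interval -0.25 to 0.46, adjusted p = 0.63, limma), and leaving out a tumor gave 0.0064 (without Siah2 KO replicate 2) to 0.19 (without Siah2 KO replicate 1).

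*Mapk14*, which encodes p38 alpha, was measured at 864, 808, 784, 1093 and 864 normalized counts across the Siah2 KO tumors, and at 791, 784, 800, 796 and 840 in the WT tumors. Replicate 5 stood above the other Siah2 KO tumors. The log2 fold change was 0.13 (95% interval -0.09 to 0.35, adjusted p = 0.33), and 0.05 without replicate 5. *Mapkapk2*, which encodes the p38 substrate kinase MK2, ranged from 644 to 783 normalized counts in Siah2 KO and from 597 to 740 in WT tumors. Its log2 fold change was 0.08 (95% interval -0.13 to 0.28, adjusted p = 0.53).

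*Dusp6* encodes a cytoplasmic phosphatase that acts on ERK. It was measured at 2879, 3096, 3398, 2822 and 2734 normalized counts across the Siah2 KO tumors, and at 2945, 2797, 2985, 2728 and 3026 in the WT tumors. The groups overlapped, with a log2 fold change of 0.04 (95% interval -0.15 to 0.23, adjusted p = 0.72).

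*Dusp4* encodes a nuclear phosphatase of ERK and JNK. It was measured at 87.4, 113, 144, 102 and 89.2 normalized counts across the Siah2 KO tumors, and at 112, 109, 110, 104 and 127 in the WT tumors. Siah2 KO replicates 1, 5 and 6 were below every WT tumor and replicate 3 was above every one. The log2 fold change was -0.09 (95% interval -0.40 to 0.22, adjusted p = 0.61), and it was -0.205 without Siah2 KO replicate 3 and -0.027 without replicate 1, not called in either case. Siah2 KO replicate 3 was the highest Siah2 KO tumor for both phosphatases.

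**Figure D1:**
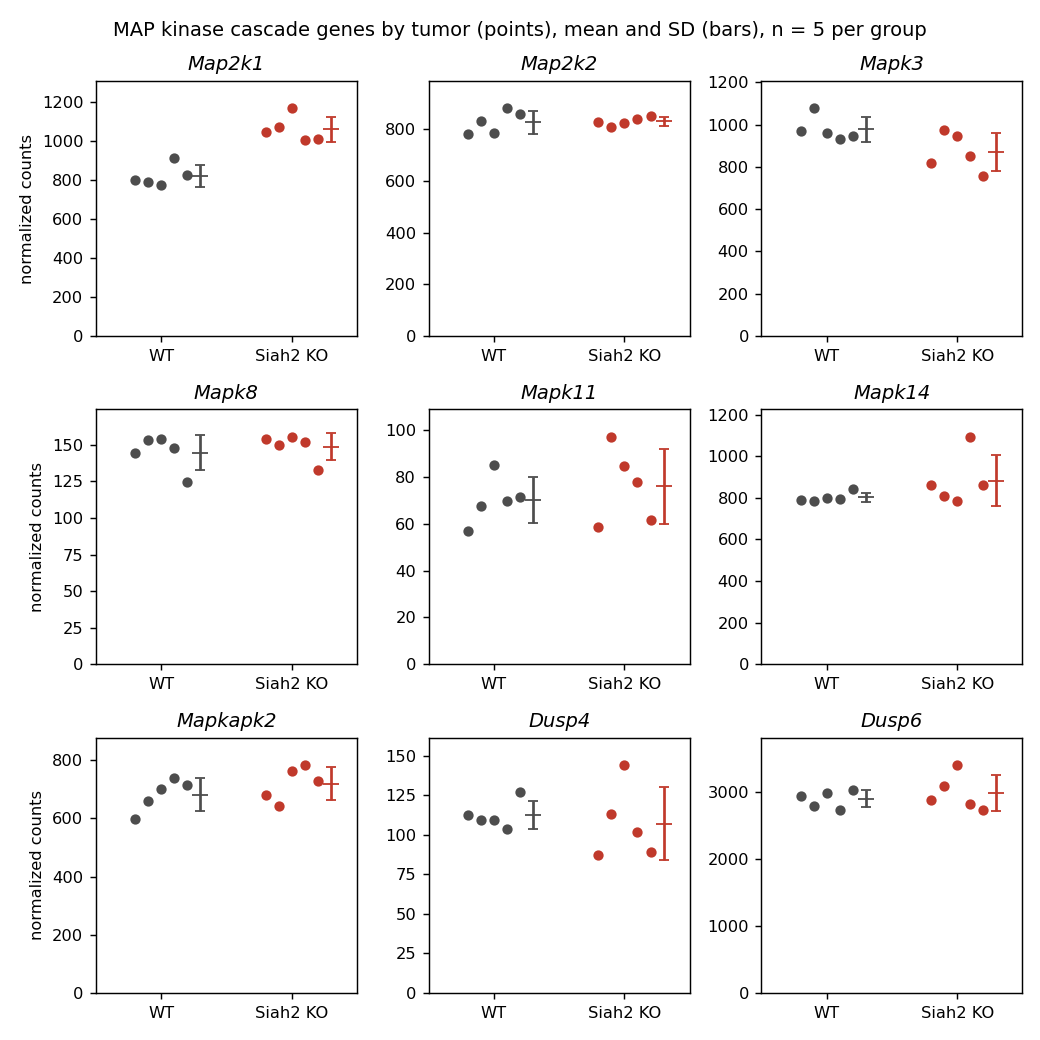
Normalized counts (linear axis from 0) of the 9 genes in each WT tumor (grey points, replicates 2 to 6 from left to right) and Siah2 KO tumor (red points, replicates 1, 2, 3, 5 and 6), with mean and SD (n = 5 each) beside them. The groups are separate for *Map2k1*, with 1003 to 1166 against 772 to 913 normalized counts, and overlap for the other 8 genes.

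**Figure D2:**
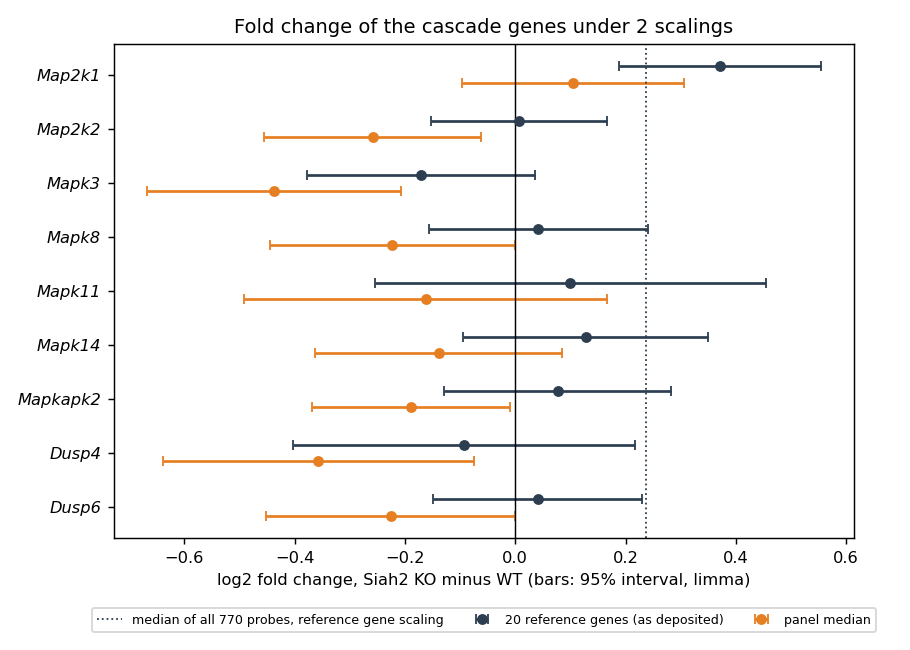
Log2 fold change (Siah2 KO minus WT) with 95% interval from limma for the 9 genes, scaled to 20 reference genes as deposited (dark) and to the panel median (orange). The dotted line is the median of all 770 probes, 0.24, under reference gene scaling, and *Map2k1* moves from 0.37 to 0.10.

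The ratio of *Map2k1* to *Map2k2* within a tumor was compared because it is free of the scaling factor. It was 0.33, 0.40, 0.50, 0.25 and 0.25 on the log2 scale in Siah2 KO replicates 1, 2, 3, 5 and 6, and 0.03, -0.08, -0.02, 0.05 and -0.06 in WT replicates 2 to 6. Each of the 5 Siah2 KO ratios exceeded the highest WT ratio. The difference between the groups was 0.36 (SE 0.05, two-sided exact permutation p = 0.0079, adjusted over 6 pairs 0.048). Leaving out each tumor in turn gave differences from 0.33 to 0.39. A ratio shows that the pair moved unequally and does not say which of them changed.

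The ratio of *Dusp6* to *Mapk3* was 1.81, 1.67, 1.85, 1.73 and 1.85 on the log2 scale in the Siah2 KO tumors and 1.60, 1.38, 1.63, 1.55 and 1.68 in the WT tumors. Of the Siah2 KO tumors, 4 lay above every WT tumor. The difference was 0.21 (SE 0.06, exact permutation p = 0.016, adjusted 0.048). The adjusted p rose to 0.071 at most on leaving out a tumor and exceeded 0.05 without WT replicate 2, 3, 4 or 5 or Siah2 KO replicate 1, 5 or 6.

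The ratios within the p38 arm and between the phosphatases did not pass the test. *Dusp4* to *Dusp6* differed by -0.13 (exact permutation p = 0.17, adjusted 0.26), with 4 of 5 Siah2 KO tumors below every WT tumor. This call turned on Siah2 KO replicate 3, without which the difference was -0.20 (exact permutation p = 0.0079, adjusted 0.024). *Mapkapk2* to *Mapk14* differed by -0.05 (exact permutation p = 0.56, adjusted 0.67) and *Mapk11* to *Mapk14* by -0.03 (exact permutation p = 0.90, adjusted 0.90).

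**Figure D3:**
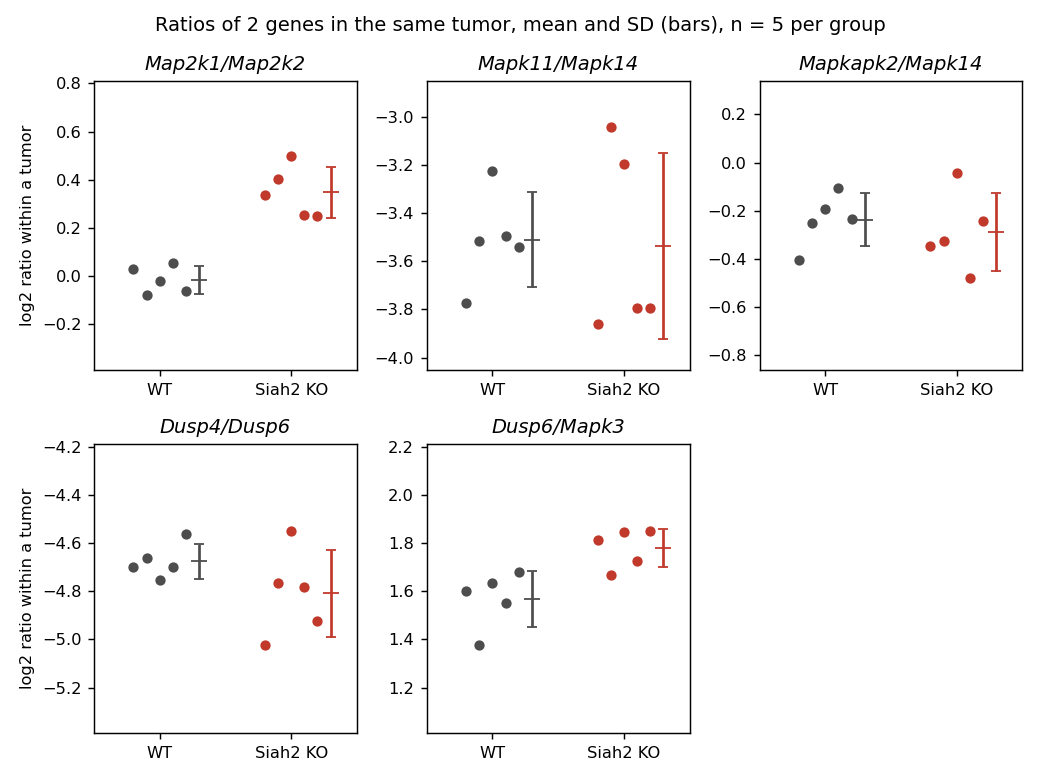
Log2 ratio of 2 genes in the same tumor for 5 pairs, with every panel spanning the same range, points for single tumors and bars for mean and SD (n = 5 each). *Map2k1*/*Map2k2* separates the groups, with 0.25 to 0.50 in Siah2 KO and -0.08 to 0.05 in WT tumors, and the other pairs overlap.

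Genes of the pathway above and below the kinases were also read. Of 37 such genes on the panel, 11 rose and 7 fell, with a median log2 fold change of 0.11, beside 31.3% of all probes higher and 9.74% lower. Scaled to the panel median 7 were called higher and 11 lower, and with quantile normalization 7 and 16. None of 8 receptor tyrosine kinases was called higher and 3 fell, with a median of -0.33. *Pdgfrb*, the PDGF receptor of fibroblasts and pericytes, was at 54.0 ± 4.92 normalized counts in Siah2 KO and 109 ± 12.9 in WT tumors (log2 fold change -0.996, adjusted p = 0.00018). It is also 1 of the 4 fibroblast markers used to describe the tumors. The others were *Igf1r*, the receptor of IGF1 (-0.41, adjusted p = 0.0055), and *Erbb2*, a member of the EGF receptor family (-0.38, adjusted p = 0.019). Among 10 upstream kinases and adaptors, *Map3k1*, a MAP kinase kinase kinase of the JNK arm, rose (0.48, adjusted p = 0.045, and 0.21 with adjusted p = 0.20 scaled to the panel median) and *Tab1*, an activator of TAK1, fell (-0.27, adjusted p = 0.041).

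Of 13 nuclear targets, 6 rose and 3 fell, beside 31.3% and 9.74% of all probes. *Fos*, an AP-1 subunit and immediate early gene, was measured at 300 to 583 normalized counts in Siah2 KO and 73.8 to 148 in WT tumors, without overlap (log2 fold change 1.78, adjusted p = 0.00057). *Egr1*, another immediate early gene, rose by 0.95 (adjusted p = 0.012) and *Creb5*, a CRE-binding factor, by 0.88 (adjusted p = 0.00018). The other 3 were *Myc*, *Ets1* and *Jun*, at 0.52, 0.28 and 0.24. *Egr3* (-1.16, adjusted p = 0.011), *Mef2c* (-0.998, adjusted p = 0.00098) and *Elk1* (-0.67, adjusted p = 0.049) fell, so immediate early genes were found in both directions. *Elk1* was at 3.78 to 12.1 normalized counts, close to the floor of 1. Scaled to the panel median, *Fos*, *Egr1* and *Creb5* were still higher (1.52, 0.69 and 0.61) while *Myc*, *Ets1* and *Jun* were at 0.25, 0.02 and -0.02 and no longer called.

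Transcripts whose stability is controlled by p38 and MK2 were higher in 4 of 6 cases and lower in none, with a median of 1.29, beside 31.3% of all probes called higher. *Ptgs2*, which encodes COX-2, was at 677 to 1806 normalized counts in Siah2 KO and 158 to 244 in WT tumors (log2 fold change 2.28, adjusted p = 0.00022). *Tnf* rose by 1.52 (adjusted p = 0.00030), and the neutrophil chemoattractants *Cxcl1* and *Cxcl2* rose by 1.05 (adjusted p = 0.0030) and 2.49 (adjusted p = 0.0034). *Cxcl2* was at 1 to 3.23 normalized counts in WT tumors, at or near the floor, so the size of its change is uncertain. *Il6* and *Csf2* were at 0.26 and 0.31 (adjusted p = 0.72 and 0.56). *Mapk14* and *Mapkapk2*, the kinases of this arm, were not called.

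**Figure D4:**
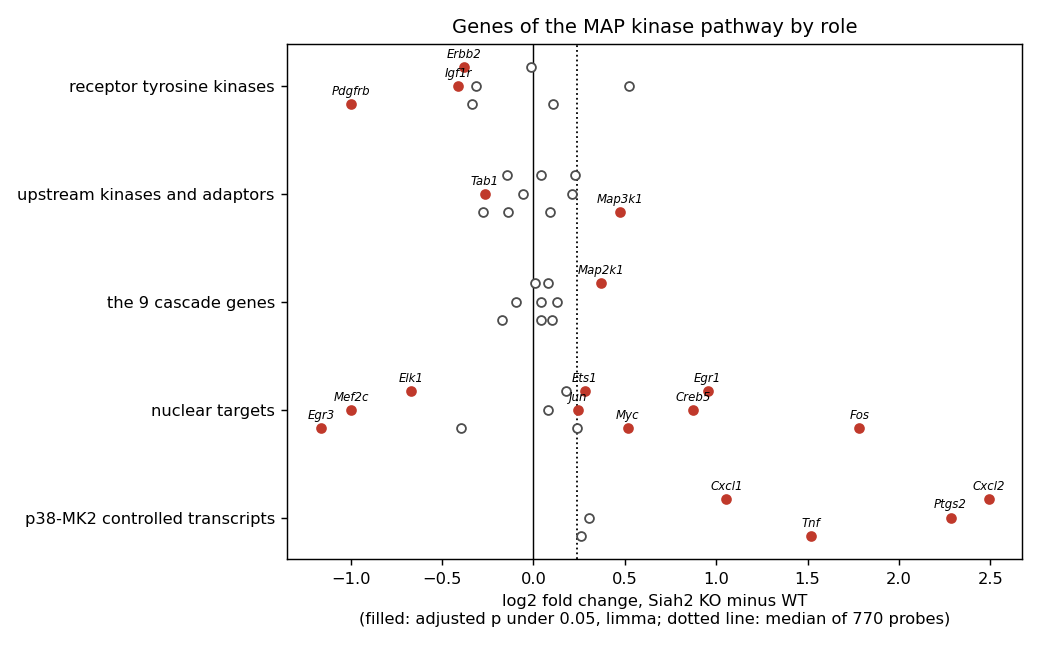
Log2 fold change (Siah2 KO minus WT) of the 9 genes and of 37 other MAP kinase pathway genes by role, with filled points for an adjusted p under 0.05 (limma) and a dotted line at the median of 770 probes, 0.24. The 9 cascade genes lie between -0.17 and 0.37, and the nuclear targets between -1.16 and 1.78.

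Some markers of the cell types that a tumor can hold differed alongside these values. The shares over all probes were 31.3% called higher and 9.74% lower. The summed level of 6 leukocyte markers was 5864 to 8801 normalized counts in Siah2 KO and 3925 to 4708 in WT tumors, with 5 of 6 called higher. Of 6 macrophage markers 4 were called higher, at 6193 to 10031 against 4673 to 5766. Of 6 T cell markers 3 were called higher, at 567 to 1042 against 427 to 558. The other 3 T cell markers were not called, and log2 fold changes in that list ran from -0.23 to 0.93. Of 4 neutrophil markers 1 was called higher, at 314 to 1376 against 451 to 741. All 4 fibroblast markers fell, with sums of 10332 to 12326 against 16494 to 21344. Of 5 endothelial markers 1 rose and 1 fell, at 659 to 753 against 660 to 764, and their median log2 fold change was -0.31. Of 3 melanoma cell markers 2 fell, at 224 to 405 against 438 to 594, with *S100b* near the floor at 1.72 ± 0.56 in Siah2 KO and 14.6 ± 7.96 in WT tumors. The part of these shifts in the values of *Map2k1*, the ratios, the receptors, the nuclear targets and the p38-controlled transcripts was not tested. In bulk tumors, fewer cells of a type and less RNA per cell cannot be told apart.

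The genes whose profile over the 10 tumors was most like each of the 9 were found by the root mean square difference of centered log2 values among 601 other probes with a mean of at least 20. *Reps1* (0.05) was among the 2 nearest to *Map2k2*, and *Dusp4* lay closest to *Dusp6* (0.14) and *Rps6* (0.14). *Dusp6* lay closest to *Jak1* (0.07) and *Rpl19* (0.08), and *Map2k1* to *Gpi1* (0.08) and *Fyn* (0.08). *Mapk3* lay closest to *Il6st* (0.09) and *Il6ra* (0.09), which encode the interleukin-6 receptor chains. *Mapk14* lay closest to *Myd88* (0.08) and *Ikbkb* (0.09), *Mapkapk2* to *Ythdf2* (0.07) and *Psma2* (0.08), *Mapk8* to *Vim* (0.07) and *Jak1* (0.08), and *Mapk11* to *Alas1* (0.12) and *Nubp1* (0.17). The gene nearest to *Dusp4* was thus 1 of the 9 itself. The measure favors probes that vary little, since the values of *Map2k2* themselves had a root mean square spread of 0.05.

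The samples differed in depth. The scaling factor of each tumor was estimated from the steps between its low values. It was 0.917 to 1.32 in WT and 1.03 to 1.60 in Siah2 KO tumors. Dividing by it gave sums over 770 probes before scaling of 443459 to 578601 in WT and 382853 to 581551 in Siah2 KO tumors. After scaling the sums were 512955 to 585366 and 575773 to 741789.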

How the data were processed

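Each tumor gave 100 ng of RNA for the NanoString assay. The deposited signal is in normalized counts. The authors ran nSolver, dropped samples whose positive controls were outlying, and scaled each tumor to 20 reference genes by their geometric mean. The values further show a background constant subtracted and a floor of 1, so low genes are compressed. In every tumor 100% of values above the floor and under 150 lay within 0.1 of a whole step of its estimated scaling factor. These are counts after background subtraction, and no count model was applied.

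Groups were taken from the sample labels. The genes and lists were chosen with earlier results of these data known. log2(value + 1) of 770 probes (20 reference genes included) was fitted with limma 3.58.1 (lmFit, eBayes) under R 4.3.3. Fold changes are Siah2 KO minus WT on that scale, and two-sided p-values were adjusted over all probes by the Benjamini-Hochberg method. Single genes and log2 ratios also had a two-sided exact permutation test over 252 divisions. Python 3.11.15 and matplotlib 3.10.9 were used. The test was checked on simulated data. Named were the 9 genes, up to 3 genes with the largest change in each direction per pathway list at an adjusted p under 0.05, and the 2 nearest profiles of each gene. *Cxcl1*, *Myc*, *Ets1*, *Jun*, *Il6*, *Csf2*, *S100b*, *Hras*, *Mst1r* and *Egr2* are outside the rule, chosen after seeing their values. Some items covered by the rule, among them 1 of the 6 ratios over which p-values were adjusted, are not reported here. Marker lists are described by counts. Alternatives were other scalings, filters, floors, pseudocounts, endogenous probes only, the methods' t-test, an intensity trend, a replicate block and leaving out each tumor. The labels do not say how tumors were assigned to mice, so p-values measure the spread between these samples.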

Additional observations from a re-analysis of the deposited data

Results flagged for a closer look

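Of 30 groups of 5 tumors examined, 3 held a tumor whose gap to the nearest other was large for the range of its group. Chance gives such a gap in about 1 of 20 groups. *Mapk3* was at 1077 normalized counts in WT replicate 3, with the next WT tumor at 970. *Mapk8* was at 132.44 normalized counts in Siah2 KO replicate 6, with the next at 149.75. *Mapk14* was at 1093 normalized counts in Siah2 KO replicate 5, with the next at 864. None of the 3 genes was called with or without the tumor.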

How the results depend on the processing

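The call of *Map2k1* held under filters, floor, pseudocount, endogenous probes only, the methods' t-test and the intensity trend, and in 10 of 10 fits that left out a tumor (0.34 to 0.41, adjusted p 0.0045 to 0.016). The count of the 9 genes called higher went from 1 to 0 with median scaling, quantile normalization, positive control scaling and the replicate block, and the count called lower from 0 to 3 with median scaling and 5 with quantile normalization. Of 37 pathway genes, 7, 7, 4 and 7 were called higher and 11, 16, 3 and 3 lower with median scaling, quantile normalization, positive control scaling and the replicate block. Over all probes these gave 163 higher and 152 lower, 153 and 181, 60 and 35, and 190 and 45. The signs of log2 fold changes turned as follows. With median scaling they were -0.26 (*Map2k2*), -0.22 (*Mapk8*), -0.16 (*Mapk11*), -0.14 (*Mapk14*), -0.19 (*Mapkapk2*) and -0.23 (*Dusp6*). With quantile normalization they were -0.038 (*Map2k1*), -0.39 (*Map2k2*), -0.22 (*Mapk8*), -0.19 (*Mapk11*), -0.25 (*Mapk14*), -0.33 (*Mapkapk2*) and -0.29 (*Dusp6*). With positive control scaling they were -0.15, -0.12, -0.061, -0.035, -0.085 and -0.12 for the same genes without *Map2k1*. The cause was not tested. Leaving out a tumor gave -0.014 to 0.030 for *Map2k2*, -0.011 to 0.083 for *Mapk8* and -0.0071 to 0.071 for *Dusp6*. The replicate numbers occur in both groups for 8 tumors, and same-numbered tumors deviated together with r of 0.05, 0.14, 0.18 and 0.49, so the numbers were not taken to pair the tumors. With the replicate block *Map2k1* was at 0.36 (adjusted p = 0.078) and *Map2k2* at -0.010. Under the block 0 pairs of genes differed, since 4 pairs of tumors allow no p below 0.125. The same 8 tumors without the block, chosen after seeing the data, gave *Map2k2* at -0.010, 8 pathway genes higher and 4 lower, and the *Map2k1* call held. Of the ratios, 1 to 3 differed on leaving out a tumor, 3 without Siah2 KO replicate 3, where *Dusp4* to *Dusp6* was added. *Cxcl2* and *Elk1* lie near the floor, which limits their fold changes. The same limit holds for *Hras*, *Mst1r* and *Egr2* among the 37 pathway genes, which were not called. Their means were 4.38, 2.94 and 8.69 normalized counts in Siah2 KO and 3.97, 2.28 and 10.2 in WT tumors.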
